A study of Mus musculus with 90 samples.

Results

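Krt8, Krt18, Krt19, Krt7, Krt10, Krt28, Krt27 and Krt42 encode keratins, and are described here across mouse oocytes and early embryos with or without a maternal supply of the transcription factor Plag1. These 8 of the 24422 genes in the count table, which holds 52 keratin genes, were chosen by name with earlier results of these data known, and Krt28 was selected on its difference between genotypes at the 2-cell stage. All Krt28 values that use 2-cell libraries are therefore a description, with no test. Of the 8 members, 6 passed the filter on low counts and were tested, while Krt19 and Krt42 did not pass it.

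Single metaphase II (MII) oocytes, 2-cell (2c) and 8-cell (8c) embryos of CD-1 mice were sequenced by counting tags from the 5′ ends of transcripts, with 92 spike-in RNAs added to every library. WT oocytes and embryos came from WT females, and matPlag1KO oocytes came from females in which a lacZ gene replaces the whole Plag1 reading frame on both alleles. The matPlag1KO embryos had such a mother and a WT father, so they are heterozygous and carry a paternal Plag1 allele. All females were 1–3 months old, sexually mature and superovulated. Oocytes were collected 21–23 h after hCG and freed of cumulus cells with hyaluronidase, and embryos were cultured in KSOM to 45–47 h (2c) or 71–73 h (8c) after fertilisation. Each library is 1 oocyte or embryo, the donor females are not identified, and so p-values here measure the spread among oocytes or embryos. Of 90 libraries, 78 were kept: 16 WT and 14 matPlag1KO oocytes, 11 and 11 2c embryos, and 15 and 11 8c embryos. They were prepared in 2 pools, libA and libB in the labels (A and B here), each with every stage and genotype, and are named by pool and position. The kept libraries held between 92475 and 2502421 counts on genes.

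Plag1 itself was read as a check of the genotype labels. Its counts were present in 16 of 16 WT oocytes (326 counts) and in 3 of 14 matPlag1KO oocytes (4 counts), which fits the labels. At 2c the order was the opposite, with 1 count in 1 of 11 WT embryos and 91 counts in 9 of 11 embryos labelled matPlag1KO, and these embryos do have a WT paternal allele. The study reports such signal as paternal expression, so Plag1 checks the labels in oocytes only.

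Keratins build the intermediate filaments of epithelial cells, and each filament needs an acidic type I partner and a basic type II partner. Krt8 (type II) and Krt18 (type I) form the filaments of simple epithelia and are known as the first keratins of the mouse embryo, where they mark the outer cells that become trophectoderm. Other pairs belong to stratified skin or to the hair follicle.

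Krt8 and Krt18 lie next to each other on chromosome 15, on opposite strands, with 23873 bases between them in the count table's annotation. Because both genes differed in the same direction at 8c, the 250 bases before each start site are shown, from RefSeq on GRCm38.p6 (Krt8 at chr15:102004343-102004592 on the minus strand, Krt18 at chr15:102027966-102028215 on the plus strand). Capitals mark a match to the AP-2 motif GCCNNNGGC, searched on both strands together with TATAAA, the Sp1 motif GGGCGG, the TEAD motif GGAATG and the AP-1 motif TGACTCA.
Krt8: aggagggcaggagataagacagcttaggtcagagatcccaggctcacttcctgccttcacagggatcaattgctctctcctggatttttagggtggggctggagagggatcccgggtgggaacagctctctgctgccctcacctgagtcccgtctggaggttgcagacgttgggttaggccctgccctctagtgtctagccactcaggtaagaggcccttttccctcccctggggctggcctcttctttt
Krt18: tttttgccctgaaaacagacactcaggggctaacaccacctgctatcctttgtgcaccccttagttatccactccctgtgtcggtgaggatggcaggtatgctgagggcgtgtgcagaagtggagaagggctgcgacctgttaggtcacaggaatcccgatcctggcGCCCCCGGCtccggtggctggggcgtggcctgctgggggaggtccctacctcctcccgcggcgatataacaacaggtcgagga
The Krt18 window holds 1 match, 83 to 75 bases before the start, and the Krt8 window holds none of the 5 motifs. Among 32851 promoter windows of the same length, 13.7% hold GCCNNNGGC, 12.4% TATAAA, 32.7% GGGCGG, 12.6% GGAATG and 4.46% TGACTCA. G and C make up 58.0% of the Krt8 window and 60.4% of the Krt18 window, against a median of 52.4%. RefSeq windows were matched for 7 of the 8 members, all but Krt19. GCCNNNGGC also occurs 2 times each in the Krt7 and Krt42 windows, GGGCGG 4 times in Krt7, and TATAAA in Krt10, Krt27 and Krt28. These matches describe letters only.

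Krt8, the type II partner, was nearly absent before the 8-cell stage. Levels are given as CPM, counts scaled to a common library size after the TMM adjustment of each size, which give no order of transcript levels between genes because each transcript is counted at its 5′ end. In WT oocytes the lowest, median and highest values were 0, 0 and 6.64 CPM, from 8 counts in 4 of 16 oocytes. In matPlag1KO oocytes they were 0, 0 and 4.13 CPM, from 9 counts in 4 of 14. The ranges of the oocyte groups overlap almost fully. At 2c, Krt8 had no count in any of the 11 WT embryos, and 5 counts in 2 of 11 matPlag1KO embryos, with a highest value of 15.0 CPM.

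All 15 WT 8c embryos held Krt8, with a lowest, median and highest value of 19.4, 53.4 and 314 CPM and 515 counts. In the matPlag1KO 8c embryos the same values were 0, 13.0 and 56.3 CPM, from 81 counts in 10 of 11 embryos. The groups overlap, but the matPlag1KO values crowd the lower end: 10 of 11 lie below the WT median, 6 lie below the lowest WT embryo, and 7 of 15 WT embryos lie above the highest matPlag1KO embryo. Summed over embryos, Krt8 was 3.86-fold higher in WT (95% counting interval 3.05 to 4.94, which covers counting error only). The spread is wide within the genotypes too, with a mean of 76.8 ± 76.1 CPM (SD) in WT and 19.99 ± 17.4 CPM in matPlag1KO embryos.

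Krt8 was called lower in matPlag1KO 8c embryos by edgeR (log2 fold change −1.91, standard error 0.49, adjusted p = 0.0258, called meaning an adjusted p under 0.05 over 16511 genes). Each pool shows the direction, with means of 69.6 against 27.0 CPM in pool A and 83.1 against 11.6 CPM in pool B. Both pools had the same layout of genotypes by position at 8c, so position and genotype cannot be told apart. The call was lost in pool A alone (−1.36, adjusted p = 0.603) and with spike-in scaling (−1.96, adjusted p = 0.0915), within a range of 0.0105 to 0.603 over the alternatives. It was also lost without the WT embryo of pool B, position F1 (−1.55, adjusted p = 0.0877), and without the matPlag1KO embryo of pool B, position E7 (−1.79, adjusted p = 0.0530). In whole embryos, fewer cells with a transcript and less RNA per cell cannot be told apart.

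Krt18, the type I partner of Krt8, was absent from all 16 WT oocytes and had 1 count in 14 matPlag1KO oocytes. At 2c its lowest, median and highest values were 0, 0 and 14.1 CPM in WT (10 counts in 5 of 11 embryos) and 0, 3.76 and 17.7 CPM in matPlag1KO embryos (15 counts in 6 of 11). The 2c ranges lie on top of each other. At 8c they were 11.1, 44.6 and 120.3 CPM in WT (320 counts in 15 of 15 embryos) and 2.40, 10.4 and 26.8 CPM in matPlag1KO embryos (48 counts in 11 of 11).

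The Krt18 groups at 8c overlap in part: all 11 matPlag1KO embryos lie below the WT median, 6 lie below the lowest WT embryo, and 11 of 15 WT embryos lie above the highest matPlag1KO embryo. Summed over embryos, Krt18 was 4.04-fold higher in WT (counting interval 2.98 to 5.598). The test called it lower in matPlag1KO embryos (log2 fold change −1.91, standard error 0.45, adjusted p = 0.0115). Pool A held means of 50.9 against 16.4 CPM and pool B 45.9 against 8.42 CPM. Within a single pool the call was lost (pool A −1.65, adjusted p = 0.470; pool B −2.44, adjusted p = 0.107; range over the alternatives 0.00195 to 0.470), while leaving out any single 8c library kept it (adjusted p 0.00878 to 0.0305).

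**Figure D1:**
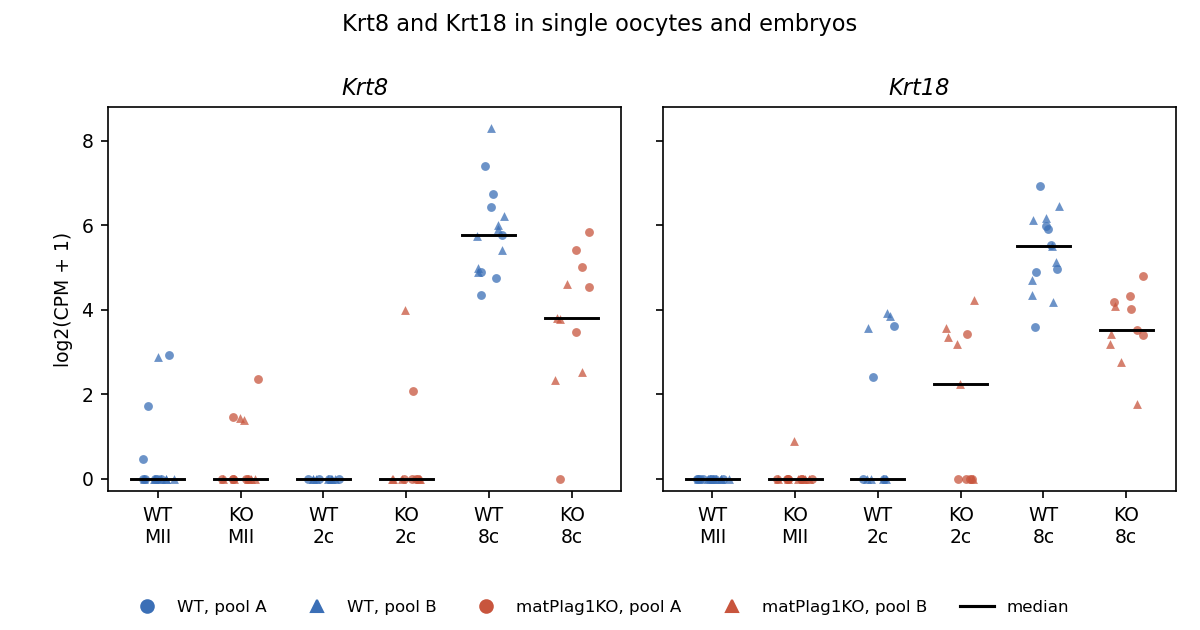
Krt8 and Krt18 in every kept library by stage and genotype, as log2 of CPM plus 1 (circles, pool A; triangles, pool B; black line, median; blue, WT; red, matPlag1KO).

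At 8c, 2 of the 6 tested members were called, both lower in matPlag1KO embryos, where 287 genes (1.74% of all genes) were called in either direction. Spike-in scaling left 1 member called (106 of all genes), pool A alone 0 (6 genes) and pool B alone 1 (46 genes). The median log2 fold change of the 6 was −0.45, against 0 over all genes. Kept 8c libraries were shallower in matPlag1KO (median 393914 counts on genes) than in WT (median 564009), and the part of depth in these results was not tested. The genotypes also held separate positions at 8c in both pools, so position and genotype cannot be told apart in any 8c contrast. In MII oocytes edgeR called 0 of the 6 members, with 0 at an unadjusted p under 0.05 and 0 by DESeq2. Krt28, with no count in oocytes, could not be called there, and Krt18 had 1 count. Of all genes 129 (0.781%) were called in oocytes. That number was 831 with the position number as a replicate block and pool as a term. It was 463 in pool B alone and 47 with only the groups compared. At 2c, edgeR called 0 of the 5 tested members other than Krt28 (1 at an unadjusted p under 0.05, 0 by DESeq2), where 4.92% of all genes were called. Krt28 was selected on this contrast and is not counted.

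Whether the Krt8 and Krt18 differences are particular to 8c was tested as the change in genotype difference from 2c to 8c. For Krt8 that change was −4.99 (log2), adjusted p = 0.0703, and for Krt18 it was −2.18, adjusted p = 0.114, so neither passed. Krt8 at 2c had a fitted log2 fold change of 3.08 (adjusted p = 0.197, counts in 2 of 11 matPlag1KO and 0 of 11 WT embryos), which enters the change of −4.99. That value was 1.41 without the matPlag1KO embryo of pool B position D7 (adjusted p = 0.576), and 1.13 to 3.34 over the alternatives (adjusted p 0.107 to 0.801). Krt18 at 2c had 0.26 (adjusted p = 0.874), a direction that turns in pool A alone (−0.61).

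**Figure D2:**
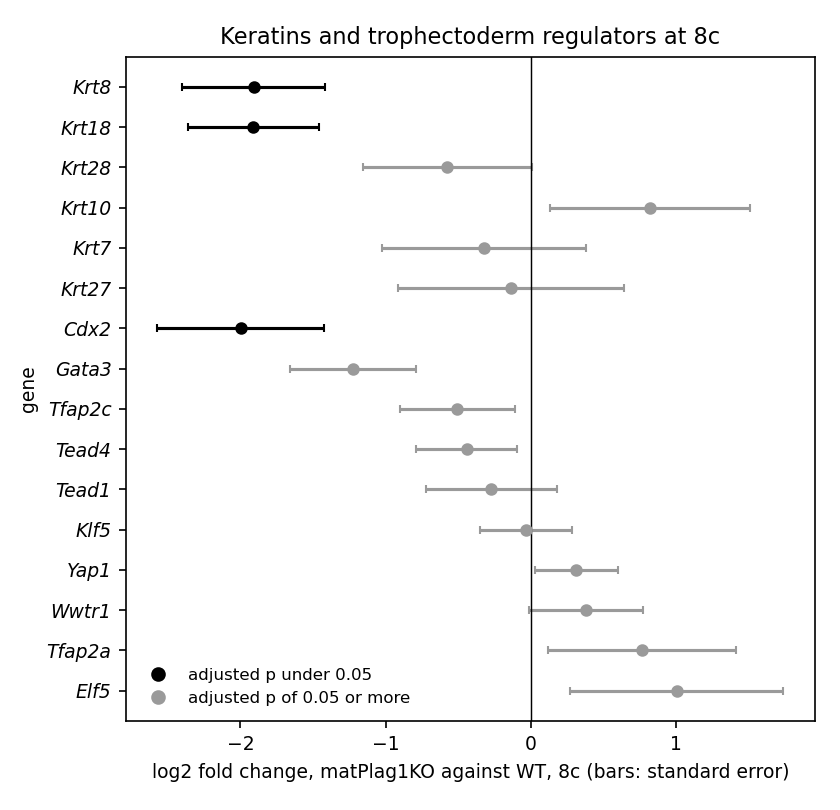
Log2 fold change at 8c, matPlag1KO against WT, with standard errors, for the tested members and then the trophectoderm regulators (black, adjusted p under 0.05). The direction of Krt10 turns in pool A alone.

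Krt8 and Krt18 were also compared between embryos of the same group. Across 15 WT 8c embryos their log2 levels correlated at r = 0.631 (permutation p = 0.0107, 0.0405 after adjustment over 4 tests) and by rank at 0.600 (p = 0.0202, adjusted 0.0405). Without the 2 embryos farthest from the median of Krt8, r in WT was 0.491 (p = 0.0880, 13 embryos), and it was 0.862 in pool A (7 embryos) and 0.390 in pool B (8 embryos). Across 11 matPlag1KO 8c embryos r was 0.232 (p = 0.480, adjusted 0.480) and the rank value 0.355 (p = 0.288, adjusted 0.384). Without the 2 embryos farthest from the Krt8 median, r in matPlag1KO was 0.504 (p = 0.165, 9 embryos), and r in pool A was 0.0627 (6 embryos). On the spike-in scale the values without those 2 embryos were 0.619 in WT (p = 0.0248) and 0.329 in matPlag1KO (p = 0.389). The genotypes' correlations were not tested against each other, and both genes of a point share a library and its depth.

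**Figure D3:**
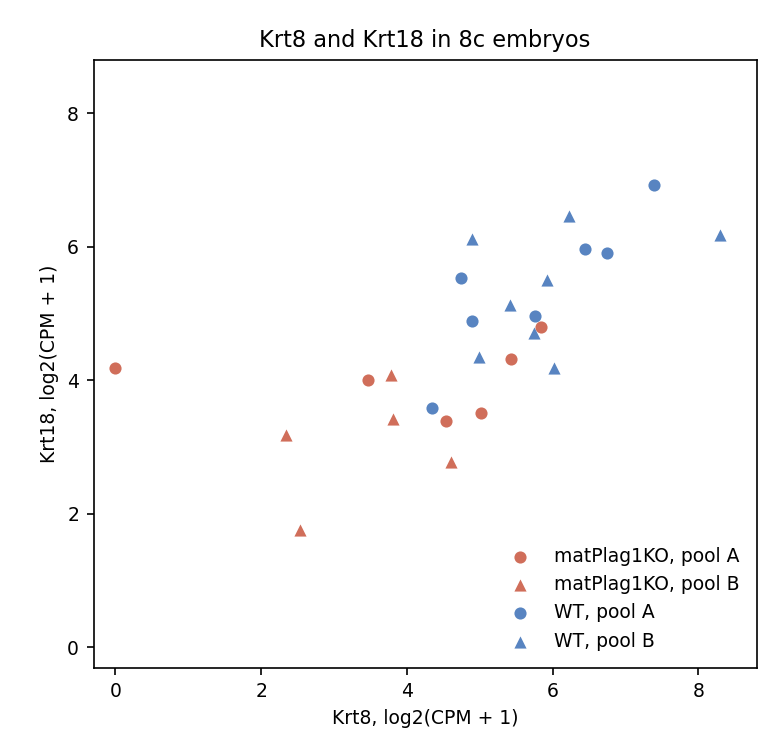
Krt8 against Krt18 in each 8c embryo (circles, pool A; triangles, pool B; blue, WT; red, matPlag1KO).

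Changes along development were measured against the spike-in RNAs, a scale on which total RNA may change between stages. Krt28 is not counted in these steps, which use the 2c libraries that selected it, so 5 tested members remain. In WT 1 of the 5 rose from MII to 2c (Krt18), where 14.1% of all genes rose, and 1 fell (Krt8), where 51.3% fell. From 2c to 8c in WT, 2 rose (Krt8 and Krt18), where 31.9% of all genes rose, and 0 fell by edgeR or DESeq2, where 16.2% fell. In matPlag1KO, 2 rose from MII to 2c (Krt18 and Krt27), where 13.5% of all genes rose. By edgeR or DESeq2 0 fell, where 50.3% of all genes fell. Pool A alone called 0 members, where 1298 of all genes rose and 6149 fell, against 2231 and 8306 in the main fit. Pool B alone called 1 member, which rose, where 1432 genes rose and 6517 fell. From 2c to 8c in matPlag1KO, 2 rose (Krt8 and Krt18), where 29.1% of all genes rose, and 0 fell by edgeR or DESeq2, where 19.5% fell. Kept libraries were shallower at 2c (median counts on genes 148473 in WT and 163626 in matPlag1KO) than at MII (395023 and 649899), and the part of depth in counts and detections at 2c was not tested.

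Krt8 fell from WT oocytes to WT 2c embryos (−2.34, adjusted p = 0.0216), at least 1.73-fold with the empty group set to 3 counts, the floor used throughout. This call and its bound rest on 8 counts in 4 of 16 oocytes, 4 of them in the oocyte of pool A position A3. Neither was recomputed without that oocyte. The call was lost with DESeq2 (−0.22, adjusted p = 0.862), with TMM scaling (−2.08, adjusted p = 0.187) and in either pool alone (0.113 and 0.221), within a range of 0.0118 to 0.862 over the alternatives. The later step in WT was far larger: Krt8 rose from 2c to 8c (log2 fold change 7.84, adjusted p = 1.75e-11, counts in 15 of 15 against 0 of 11 embryos), at least 103.8-fold. WT 8c embryos held 60.2 times the Krt8 of WT oocytes (counting interval 30.3 to 140.1). This ratio rests on the same 8 oocyte counts, 4 of them in 1 oocyte, and was not recomputed without that oocyte. In matPlag1KO, Krt8 rose 16.5-fold from 2c to 8c (counting interval 6.81 to 52.3, log2 fold change 3.65, adjusted p = 4.14e-05, counts in 10 of 11 against 2 of 11). Of the 5 counts at 2c, 4 lie in the embryo of pool B position D7, and this step was not recomputed without that embryo. From MII to 2c in matPlag1KO the log2 fold change of Krt8 was −0.39 (adjusted p = 0.696), and the direction flips with DESeq2 (1.14), with TMM (1.12) and in pool B alone (0.61).

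A rise of Krt18 was called a step earlier than that of Krt8, and the timing of these genes was not tested against each other. In WT, Krt18 rose from MII to 2c (3.17, adjusted p = 8.06e-05, counts in 5 of 11 against 0 of 16), at least 5.15-fold. It rose again from 2c to 8c by 19.4-fold (counting interval 10.4 to 40.7; 4.05, adjusted p = 4.40e-08, counts in 15 of 15 embryos). In matPlag1KO, Krt18 rose 19.6-fold from MII to 2c (counting interval 3.02 to 826; 2.93, adjusted p = 0.000321, counts in 6 of 11 against 1 of 14), a call lost in pool A alone (2.50, adjusted p = 0.0731, the highest over the alternatives, with 1.56e-07 the lowest).

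From 2c to 8c in matPlag1KO, Krt18 rose 3.27-fold (counting interval 1.80 to 6.29; 1.63, adjusted p = 0.0179, counts in 11 of 11 against 6 of 11). This smaller step was lost with DESeq2 (1.20, adjusted p = 0.0791), with TMM (1.05, adjusted p = 0.102) and in pool B alone (0.63, adjusted p = 0.567), within a range of 0.00570 to 0.567.

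Krt28, a type I keratin of the inner root sheath of the hair follicle, had no count in any of the 30 oocytes. Its promoter window is shown because Krt28 carries the genotype difference it was selected on (RefSeq, GRCm38.p6, chr11:99374904-99375153, minus strand, 38.8% G and C). Capitals mark TATAAA, 30 to 25 bases before the start.
Krt28: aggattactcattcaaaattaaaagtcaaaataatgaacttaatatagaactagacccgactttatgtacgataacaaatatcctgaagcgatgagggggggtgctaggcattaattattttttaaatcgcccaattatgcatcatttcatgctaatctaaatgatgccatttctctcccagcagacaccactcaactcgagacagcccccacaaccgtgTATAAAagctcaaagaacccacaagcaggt
At 2c the lowest, median and highest values were 0, 16.4 and 61.9 CPM in WT, from 45 counts in 10 of 11 embryos. In matPlag1KO 2c embryos 4 counts were found in 3 of 11 embryos, with a highest value of 8.16 CPM. The groups overlap at the low end, and the ratio of summed levels was 13.2 in favour of WT (counting interval 4.80 to 50.4; log2 fold change −3.51, or −4.19 without the matPlag1KO embryo of pool B position D6, −4.61 in pool A alone and −2.92 in pool B alone).

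At 8c, in libraries that played no part in the selection, Krt28 was at 0, 9.79 and 52.1 CPM in WT (84 counts in 13 of 15 embryos) and at 0, 6.33 and 26.0 CPM in matPlag1KO embryos (32 counts in 10 of 11). These ranges overlap, with 6 of 11 matPlag1KO embryos below the WT median. The test did not call Krt28 at 8c (−0.57, standard error 0.58, adjusted p = 0.708; ratio of summed levels 1.59 in favour of WT, counting interval 1.05 to 2.47). Krt28 was at least 26.2-fold higher in WT 8c embryos than in WT oocytes, and at least 14.3-fold higher in matPlag1KO 8c embryos than in their oocytes. From 2c to 8c in WT its log2 fold change was 0.21, and the direction flips with DESeq2 (−0.51), TMM (−0.68) and in pool A alone (−0.54).

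Krt27, another inner root sheath keratin, is a neighbour of Krt28 on chromosome 11, 13888 bases away, and stayed close to 0. Its counts were 2, 4 and 2 in WT at MII, 2c and 8c, and 0, 5 and 1 in matPlag1KO. It rose from MII to 2c in matPlag1KO (2.33, adjusted p = 0.00761), at least 2.18-fold, with all 5 counts in 1 of 11 embryos. That call was lost with the likelihood ratio test (2.35, adjusted p = 0.0687, within a range of 0.000141 to 0.0687), and DESeq2 gave no adjusted p. In WT that step was not called (1.11, adjusted p = 0.221), but was with TMM (2.20, adjusted p = 0.0183, within a range of 0.0183 to 0.467).

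Krt10, the type I keratin of the upper layers of the epidermis, lies on the other side of Krt28, 10351 bases away. Its counts were 14, 7 and 16 in WT at MII, 2c and 8c, and 22, 15 and 17 in matPlag1KO, in 3 to 9 libraries of each group. Highest values ranged from 6.28 CPM in WT oocytes to 31.9 CPM in matPlag1KO 2c embryos, and all 6 groups overlap from 0 upward. No genotype contrast called Krt10 (0.54 at MII, 0.94 at 2c and 0.82 at 8c, adjusted p = 0.643 at 8c), and at 8c the direction turns in pool A alone (−0.04). At 2c the value was 2.28 without the WT embryo of pool B position C2 (adjusted p = 0.147).

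Krt7 and Krt19, type II and type I keratins of simple epithelia, were barely detected. Krt7 had 1 count in each oocyte and 2c group, 8 counts in 4 of 15 WT 8c embryos and 4 counts in 2 of 11 matPlag1KO 8c embryos. Krt19 was found only at 8c, with 5 counts in 1 WT embryo and 2 in 1 matPlag1KO embryo (ratio 1.52, counting interval 0.248 to 15.9). Krt42, a type I keratin, had 4 counts in 3 WT oocytes and none elsewhere.

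**Figure D4:**
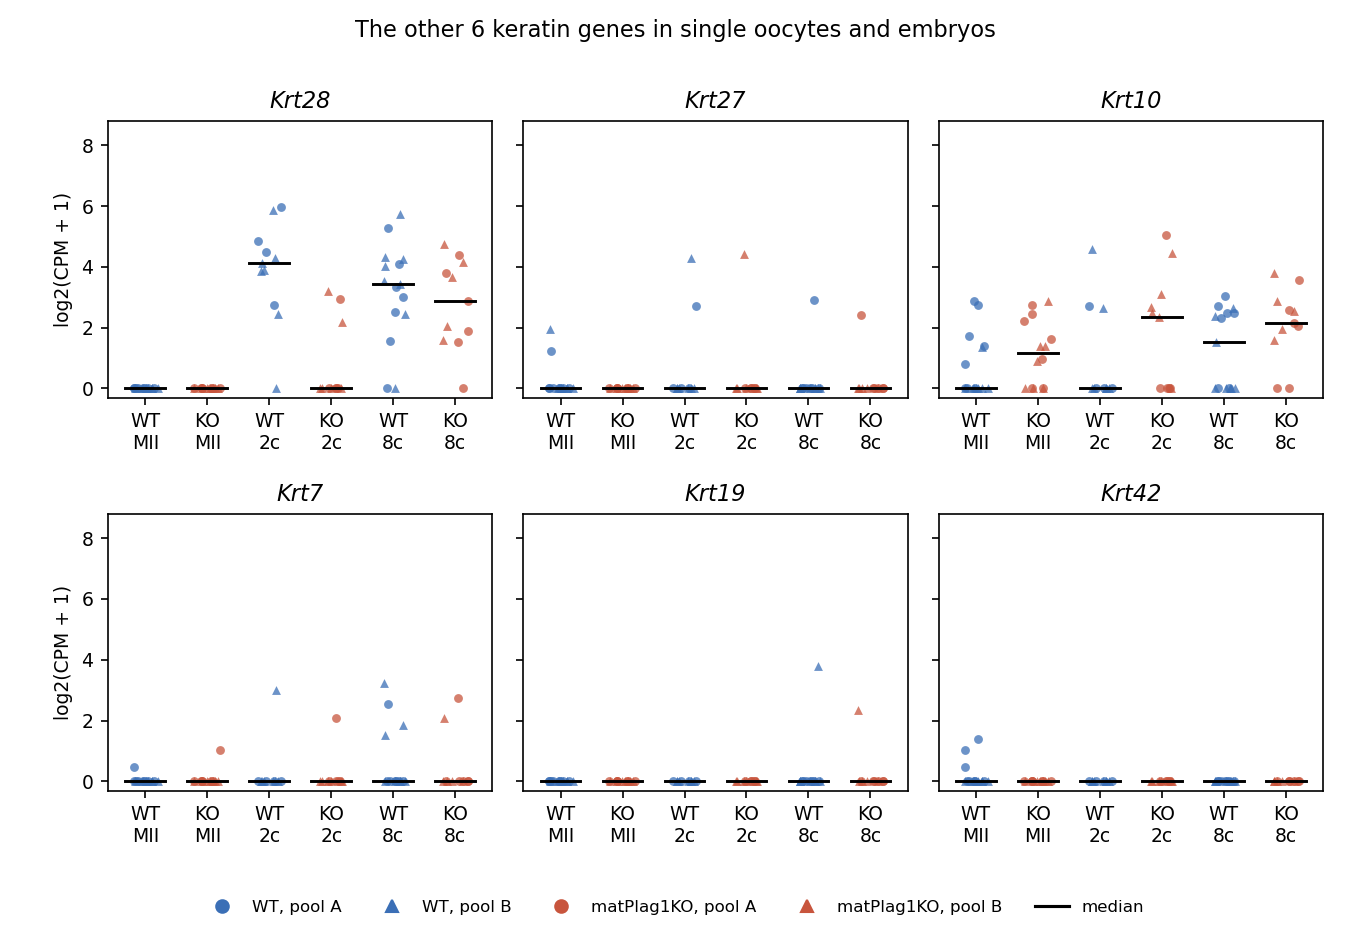
The other members in every kept library by stage and genotype, as log2 of CPM plus 1 (circles, pool A; triangles, pool B; black line, median; blue, WT; red, matPlag1KO). Krt28 was selected on its 2c difference.

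Part of the Krt8 reads may be ambiguous. Of 171 stretches of 30 bases in the first 200 bases of the Krt8 transcript, 99 (57.9%) occur elsewhere in the genome, at 1 other locus. For Krt18 the same holds for 24 (14.0%, at 3 other loci), and for the other 6 members for 0. Counts of Krt8 and, less so, of Krt18 are uncertain to that extent.

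Genes most like Krt8 in their rank pattern over the 78 libraries, among 10840 genes, were Mpzl2 (rank correlation 0.903), Serpinb9b (0.890) and Tmed1 (0.886). For Krt18 they were Slc6a8 (0.860), Epas1 (0.847) and Lpcat3 (0.842). Krt18 itself ranked 321 in likeness to Krt8 (0.732). The closest to Krt28 were Dancr (0.787), Nop16 (0.787) and Znhit3 (0.772), and this list uses the 2c libraries that selected Krt28.

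Of the 44 other keratin genes of the table, 15 had no count and 14 were tested. Among the hair keratins Krt31 to Krt39 and Krt81 to Krt86, only Krt36, Krt84 and Krt85 passed the filter. Krt85 had 624 counts (WT) and 757 counts (matPlag1KO) at MII, then 68 and 196, then 4 and 5. Krt84, its neighbour, had 538 and 673, then 64 and 183, then 1 and 0. Because the annotated range of Krt85 contains Krt84 and other keratins on the same strand, the counts of these neighbours are uncertain. Krt12, the type I keratin of the cornea, had 671 and 829 counts, then 42 and 84, then 1 and 6. Between MII and 2c, 9 of the 14 fell in WT and 7 in matPlag1KO, shares near those of all genes (51.3% and 50.3%). Between 2c and 8c, 7 fell in WT and 11 in matPlag1KO, where 16.2% and 19.5% of all genes fell. Apart from Krt222, the 14 had nearly all their counts before 8c. They passed the filter mainly through those earlier libraries, so their falls to 8c are a description and no test. Krt84 and Krt85 are both counted among them. Krt222 rose from 2c to 8c in matPlag1KO (2.50, adjusted p = 0.0328), with 13 of its 18 8c counts in 1 embryo and the call lost in 5 of 9 alternatives (adjusted p 0.00985 to 0.338 over all 9). Krt12 fell at each step in both genotypes (WT −3.28 and −4.59, matPlag1KO −2.95 and −3.48), while the matPlag1KO step to 2c of Krt84 (−1.56) and Krt85 (−1.62) flips with TMM (0.11 and 0.04) and loses its call with DESeq2 (Krt84 −0.14, adjusted p = 0.695, within a range of 0.000108 to 0.805; Krt85 −0.21, adjusted p = 0.519, within a range of 4.78e-05 to 0.960).

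Between genotypes, edgeR called 0 of these 14 in oocytes (0.781% of all genes, 2 at an unadjusted p under 0.05, 0 by DESeq2). It called 0 at 8c (1.74% of all genes, 1 at an unadjusted p under 0.05, 0 by DESeq2). At 8c Krt13, Krt20, Krt71, Krt73, Krt75, Krt76 and Krt80 had a fitted value of 0 with no standard error, so they could not be called. Over all 16511 genes, 1690 (MII), 3380 (2c) and 2363 (8c) had an unadjusted p under 0.05. At 2c, where 4.92% of all genes were called, edgeR called Krt84 higher in matPlag1KO (1.13, adjusted p = 0.0413, named after its values were seen). That call was lost when all libraries were kept (0.0501), without the filter on low counts (0.0577), in pool A (0.876) or pool B alone (0.0559) and with only the pair of groups fitted (0.0632), within a range of 0.00737 to 0.876. Krt85, whose annotated range contains Krt84, was not called at 2c (1.13, adjusted p = 0.0578), but was with the likelihood ratio test (0.0225), DESeq2 (0.00415) and median-ratio factors (0.0479), within a range of 0.00415 to 0.865. Krt85 was also called (0.0276 to 0.0463) without the WT 2c embryos of pool A positions C3 and D4, or the matPlag1KO embryos of pool A position D6 and pool B positions D4 and D5. Leaving out a single library also lost the Krt84 call (adjusted p 0.0538 to 0.140) for the WT 2c embryos of pool A positions C2 and D5 and pool B positions C2, C3, C4, C5 and C8, and for the matPlag1KO embryos of pool A position D2 and pool B positions D2, D6 and D8.

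**Figure D5:**
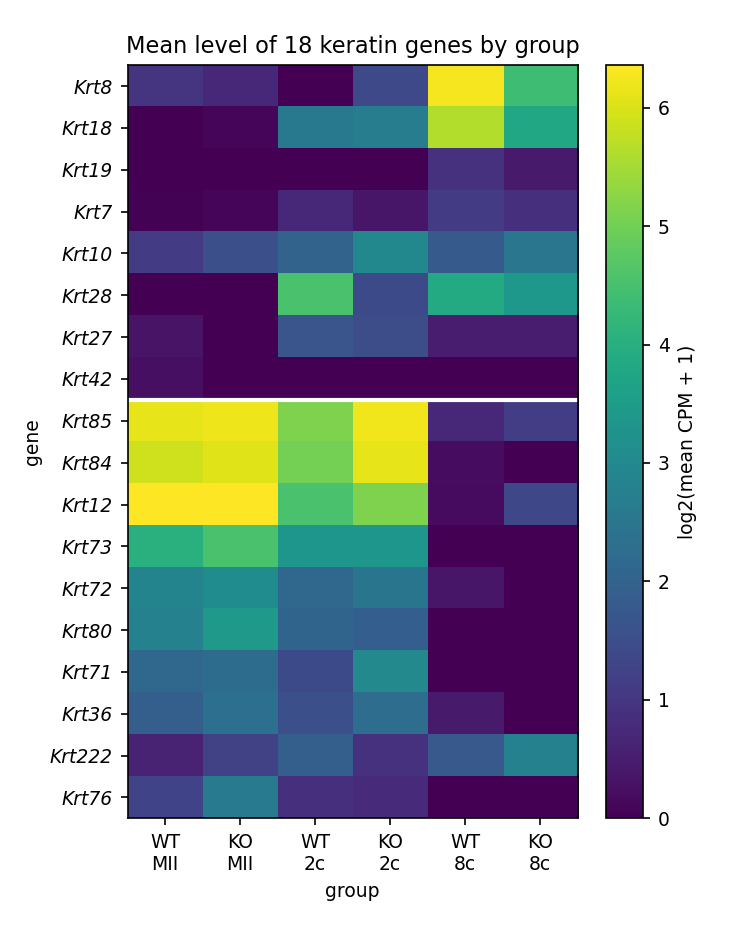
Mean level of the 8 members (above the white line) and 10 other keratins (below) in each group, as log2 of mean CPM plus 1.

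Keratin filaments attach to desmosomes and share the cell with other intermediate filaments. Of 25 genes for such partners and linkers, 22 were tested. For oocytes edgeR called 0 of them between genotypes (0.781% of all genes, 1 at an unadjusted p under 0.05, 0 by DESeq2). Pool A alone called 1 (138 of all genes), and Eppk1, with no count in oocytes, could not be called. At 8c edgeR also called 0 (1.74% of all genes, 5 at an unadjusted p under 0.05, 0 by DESeq2), with a median log2 fold change of 0.10. At 2c (4.92% of all genes) Nes, an intermediate filament of stem cells, was called higher in matPlag1KO embryos (2.66, adjusted p = 0.0385, 46 counts against 6). Nes was lost with the likelihood ratio test (0.0624), with spike-in scaling (0.0957) and in pool A (0.529) or pool B alone (0.200), within a range of 0.0242 to 0.529, and without the WT 2c embryo of pool B position C8 it was larger (3.85, adjusted p = 0.00887). The Nes call was also lost (adjusted p 0.0505 to 0.0738) without single WT 2c embryos of pool A positions C3 and D5 and pool B positions C3, C4, C6 and C7, or matPlag1KO embryos of pool A positions D1 and D2 and pool B positions D6 and D7. Along development, the WT step from MII to 2c had 2 of the 22 partners rise and 10 fall (14.1% and 51.3% of all genes, 2326 and 8474). With DESeq2 3 rose and 4 fell (3301 and 4173 of all genes), and in pool B alone 0 and 4 (2418 and 4543). The next WT step had 8 rise and 2 fall (31.9% and 16.2% of all genes, 5269 and 2681), but 4 and 0 in pool A alone (2771 and 1255). In matPlag1KO 2 rose and 9 fell (13.5% and 50.3% of all genes), then 8 rose and 5 fell (29.1% and 19.5%, 4812 and 3213). The latter were 4 and 3 in pool A alone (2556 and 1750 of all genes). The linker gene Macf1 rose from 2c to 8c in both genotypes (2.94 in WT, 2.58 in matPlag1KO), while Jup, a desmosome gene, fell from MII to 2c in both (−3.09 and −2.71), a call lost in matPlag1KO with TMM (−0.89, adjusted p = 0.0644, within a range of 2.86e-07 to 0.0644).

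Regulators of trophectoderm, the tissue marked by Krt8 and Krt18, were read from a list of 11 genes, of which 10 were tested. In WT, 2 of the 10 rose and 3 fell at the step to 2c (14.1% and 51.3% of all genes, 2326 and 8474). In pool A alone 2 rose and 1 fell (1140 and 7075 of all genes). At the WT step to 8c, 7 rose (31.9% of all genes). In matPlag1KO 2 rose and 2 fell at the step to 2c (13.5% and 50.3% of all genes, 2231 and 8306), but 6 and 1 with TMM (4799 and 3192 of all genes). At the step to 8c, 8 rose and 1 fell (29.1% and 19.5%). Tead4 rose at each step in both genotypes (WT 4.49 and 3.02, matPlag1KO 2.64 and 3.38), as did Klf5 (WT 3.68 and 2.91, matPlag1KO 4.68 and 2.50). Between genotypes edgeR called 0 of the 10 in oocytes (0.781% of all genes, 0 at an unadjusted p under 0.05, 0 by DESeq2). It called 0 at 2c (4.92% of all genes, 4 at an unadjusted p under 0.05, 0 by DESeq2), where Elf5 had no count and could not be called. At 8c edgeR called 1, Cdx2 (1.74% of all genes), and the median log2 fold change of the 10 was −0.15.

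Cdx2, a transcription factor of the trophectoderm, was at 2.38, 19.8 and 186 CPM (lowest, median and highest) in WT 8c embryos and at 0, 3.25 and 66.7 CPM in matPlag1KO embryos, from 287 and 48 counts. Of these 48, 35 lie in 1 embryo, pool A position F5. The groups overlap, with 10 of 11 matPlag1KO embryos below the WT median. Cdx2 was called lower (−1.999, standard error 0.57, adjusted p = 0.0471; ratio of summed levels 3.63, counting interval 2.66 to 5.03). This call lies close to the threshold: it was lost in 8 of 10 alternatives (adjusted p 0.0581 to 0.772, range over all 10 0.0226 to 0.772). It was also lost (0.0509 to 0.139) without single WT embryos of pool A positions F3 and F4 and pool B positions E2, E4, F1 and F3, or matPlag1KO embryos of pool A positions E5, E7, E8, F6 and F7 and pool B positions E5, E7, F5, F6 and F7. Without the matPlag1KO embryo of pool A position F5 the difference was larger (−3.35, adjusted p = 0.000848). Gata3, another such factor, was not called (−1.22, adjusted p = 0.126; −0.59 without the WT embryo of pool B position F1, adjusted p = 0.566).

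Markers of other cell types were read beside the keratins, and their part in the keratin results was not tested. The gene with the most CPM of each list is named as the largest source of its sum, not as an order of transcript levels. Cumulus and granulosa markers (12 genes, 7 tested) summed to a mean of 23.96 and 21.7 CPM at MII (WT and matPlag1KO), 7.87 and 12.1 at 2c, and 1.09 and 2.92 at 8c, with Cyp19a1 the largest source in oocytes and Ptx3 at 0 in all groups. Oviduct markers (8 genes, 3 tested) summed to 119.2 and 146.5 CPM, then 158.6 and 115.1, then 200.1 and 171.3, with the most from Cdh1 in oocytes and at 8c and from Epcam at 2c, both of which embryos also express, with Wt1 at 0 in all groups. Epidermal markers (11 genes, 3 tested) together held 97.5 and 91.7 CPM, then 11.9 and 30.9, then 4.72 and 4.43, with Krt1, Krt5 and Lor at 0 in all groups. In oocytes 91.9 and 87.9 CPM of this came from Trp63 alone, and at 2c all of it. These sums thus follow 1 gene and do not measure epidermal RNA. EdgeR called 0 genes of these lists between genotypes at any stage (at an unadjusted p under 0.05, 1 in each list at 2c and 1 epidermal gene at MII, with 0 called by DESeq2). Of all genes 0.781% (MII), 4.92% (2c) and 1.74% (8c) were called. With so few genes tested, 0 calls does not set these lists apart from all genes. Tnfaip6 at MII, Krtdap and Sbsn at 2c, and Inhba, Fshr and Lhcgr at 8c had no count in either genotype, so they could not be called there.

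Inner root sheath markers, which bear on Krt28 and Krt27 (7 genes, 5 tested), summed to 27.4 and 35.1 CPM at MII, 26.7 and 32.9 at 2c and 2.30 and 11.5 at 8c, with the most from Krt73 in oocytes and Tchh later, with Krt26 at 0 in all groups. Tchh, a root sheath protein named after its values were seen, was called higher in matPlag1KO 8c embryos (2.63, adjusted p = 0.0301, 42 counts against 10). That call was lost with DESeq2 (0.0528), with spike-in scaling (0.0694) and in pool A (0.485) or pool B alone (0.208), within a range of 0.0157 to 0.485. It was also lost without the matPlag1KO embryos of pool A position F7 (0.0564), pool B position E7 (0.0660) and pool B position F5 (0.0563).

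Oocyte markers (7 genes, with the most from Oosp1 in oocytes and at 2c) summed to a mean of 10516.7 and 13847.5 CPM at MII (WT and matPlag1KO), then 3377.6 and 4710.4, then 99.6 and 188.5. Bmp15, named after its values were seen, was called higher in matPlag1KO embryos at 2c (1.83, adjusted p = 0.0110, 3975 counts against 781), a call lost in pool A alone (0.539, within a range of 1.63e-05 to 0.539) and without the matPlag1KO embryo of pool B position D2 (1.404, adjusted p = 0.0683). Nobox, named likewise, was called higher at 8c (2.53, adjusted p = 0.00743, 395 counts against 97, with 265 in the embryo of pool A position F5). It was lost without that embryo (1.46, adjusted p = 0.173) and in pool A (0.362) or pool B alone (0.0776), within a range of 0.00230 to 0.362. Markers of the 2-cell embryo (7 genes, 5 tested, with the most from Zfp352 at 2c) summed to 3.38 and 1.44 CPM at MII, then 351.5 and 625.3, then 6.08 and 12.0. Tdpoz4 of that list was called higher at 2c in matPlag1KO embryos (3.37, adjusted p = 0.00142, 528 counts against 33, named after its values were seen). Of the 528, 291 lie in 1 embryo. The call was lost in pool A alone (0.413, within a range of 3.19e-08 to 0.413), and without the matPlag1KO embryo of pool A position D2 the value was 2.49 (adjusted p = 0.0230).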

How the data were processed

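The authors' deposited table holds counts of reads per annotated gene, from single oocytes and embryos. As the study's methods state, the authors joined reads by molecular tags, trimmed and aligned them to mm9 with TopHat and counted them with HOMER; versions are not given. Of 90 libraries, 12 with a median of under 1 CPM were left out. A gene was tested if 5 or more kept libraries held 1 CPM or more of it (16511 genes) in R 4.3.3 with edgeR 4.0.16 (quasi-likelihood F-test, 1 mean per group, Benjamini-Hochberg adjustment over all tested genes). Genotype contrasts were scaled by TMM and stage steps by spike-in totals. The spike-in scale moved the median change over the tested genes (log2) to −1.46 (WT MII to 2c), 0.53 (WT 2c to 8c), −1.42 (matPlag1KO MII to 2c) and 0.30 (matPlag1KO 2c to 8c), against −0.03, −0.12, 0.14 and −0.31 with TMM, and it moved the genotype contrasts to 0.30 (MII), 0.28 (2c) and 0 (8c), so that single changes are to be read relative to these. Alternatives were DESeq2 1.42.0, the likelihood ratio test, other scalings and filters, all libraries, pool as a term, each pool alone and only the groups compared. Each library was left out in turn for the genotype contrasts within a stage, not for the stage steps. Ratios of summed levels carry exact 95% counting intervals. Correlations of log2(CPM+1) were tested with 100000 permutations. Genes named by rule were the members, up to 10 other called keratins of highest mean CPM, up to 4 genes per list and comparison with the lowest adjusted p, and the 3 nearest in likeness. Lists were other keratins, filament partners, trophectoderm regulators and markers of cumulus, oviduct, epidermis, inner root sheath, oocyte and 2-cell embryo. The members and lists were chosen with earlier results of these data known. Python 3.11.15, numpy 2.4.6, scipy 1.17.1, pandas 2.3.3 and matplotlib 3.10.9 were used for levels, sequences and figures. The procedure was also run on simulated counts, with changes set only in genes that have more counts than most members, so it does not cover those members.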

Additional observations from a re-analysis of the deposited data

Results flagged for a closer look

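The genotype difference of Plag1 differed between stages by a test of the difference itself. From MII to 2c the log2 difference moved by 11.24, because Plag1 was lower in matPlag1KO oocytes (−5.64, adjusted p = 1.48e-10) and higher in embryos labelled matPlag1KO at 2c (5.59, adjusted p = 0.000127; 7.03 without the WT embryo of pool A position C2), a call lost in pool A alone (4.18, adjusted p = 0.435, within a range of 3.69e-06 to 0.435). From 2c to 8c it moved by −5.66, to −0.07 at 8c (adjusted p = 1).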

How the results depend on the processing

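Over 105 results of named genes and 922 alternatives, 818 kept their direction and side of the threshold, 69 lost the call, 4 gained it and 31 turned direction; the cause was not tested. Most members have a few counts per library, which limits the precision of their levels; the part of depth was not tested.

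Called genes at MII: 129 (51 higher, 78 lower), against 77 with DESeq2 (43 and 34), 463 in pool B alone, 47 with only the groups compared, 97 higher and 40 lower with spike-in scaling, and 84 to 151 leaving out a library (84 without the WT oocyte of pool B position B2). Among oocytes, 14 position numbers occur in both genotypes. With that number as a replicate block, and pool as a term, 831 genes were called (671 and 160), and no call of a member changed. Deviations from the group means correlated over 0.1 in 12 of 14 pairs (lowest −0.0562), from group and pool means in 14 of 14 (lowest 0.148, a centring chosen after results were known), and 11 of 14 WT oocytes correlated best with their own position. At 2c and 8c only 2 and 0 positions held both genotypes. Position and genotype therefore cannot be told apart at 8c, where both pools had the same layout.

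At 2c 812 (379 and 433) were called, against 285 with spike-in scaling (191 and 94), 0 in pool A (edgeR; 1339 at an unadjusted p under 0.05), 502 in pool B (150 and 352), 459 and 309 with all libraries kept, and 451 to 1140 leaving out a library (451 without WT pool A position D5, 457 without matPlag1KO pool B position D2, 532 without matPlag1KO pool A position D2). At 8c 287 (200 and 87) were called, against 106 with spike-in scaling (91 and 15), 6 in pool A, 46 in pool B, and 184 to 306 leaving out a library (184 without WT pool A position F4; 187, 189 and 190 without matPlag1KO pool B positions E7 and F6 and pool A position E8). The tests of genotype difference called 268 and 278 (2c minus MII) and 187 and 193 (8c minus 2c), and with spike-in scaling 312 (111 and 201) and 92 (31 and 61).

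Stage steps: WT MII to 2c called 2326 rising and 8474 falling (pool B 6961 in all; TMM 4540 and 3814; DESeq2 3301 and 4173), WT 2c to 8c 5269 and 2681 (pool A 4026; TMM 3475 and 4767; DESeq2 3440 and 3629), matPlag1KO MII to 2c 2231 and 8306 (TMM 4799 and 3192; DESeq2 6896, 3188 and 3708) and matPlag1KO 2c to 8c 4812 and 3213 (pool A 4306; TMM 3501 and 5008; DESeq2 3354 and 3790).

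Directions turned, between genotypes, for Krt18 (MII, DESeq2 −0.27; 2c, pool A −0.61), Krt8 (MII, spike-in scaling 0.29, pool A 0.0608), Krt27 (2c, median ratio 0.0417, spike-in scaling 0.22, only the groups compared 0.0104) and Krt10 (8c, pool A −0.0422). In WT MII to 2c Krt10 turned (DESeq2 1.03, TMM 1.20, pool B 1.98), and in WT 2c to 8c Krt10 (−0.21, −0.35, −0.51) and Krt28 (DESeq2 −0.51, TMM −0.68, pool A −0.54). In matPlag1KO MII to 2c Krt10 (all libraries 0.0586, DESeq2 1.42, TMM 1.61, pool B 0.66; called with TMM, adjusted p = 0.0494, range 0.0494 to 0.996), Krt8 (DESeq2 1.14, TMM 1.12, pool B 0.61), Tfap2c (DESeq2 0.30, TMM 0.62), Krt84 (TMM 0.11), Krt85 (TMM 0.0366) and Macf1 (TMM 0.0328) turned, and in matPlag1KO 2c to 8c Krt10 (DESeq2 −0.36, TMM −0.47). Leaving out a library gave ranges of −0.62 to 0.55 (Krt8, MII), −0.26 to 0.38 (Krt7, MII), −3.13 to 1.48 (Krt27, 2c), −1.56 to 1.28 (Krt7, 2c), −0.0938 to 0.57 (Krt18, 2c), −1.35 to 0.33 (Krt7, 8c) and −1.21 to 1.07 (Krt27, 8c).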
